A study of Homo sapiens with 5 samples.

Results

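The autophagy core machinery and its cargo receptors were taken as 37 named genes, out of 18417 genes measured, in a human leukemia cell line treated with an inhibitor of the kinase GSK-3. Each gene was followed through the probe whose annotation named it alone, and all 37 had such a probe. ATG2B and ATG4B had more than 1, and the one with the highest average signal was used. The genes were grouped by the step they serve, with 16 in initiation, 16 in conjugation, 4 cargo receptors and 1 transcription factor.

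RNA came from RS4;11, an acute leukemia line whose MLL gene is rearranged. For 2 control arrays the cells were given only DMSO, the solvent, and for 3 arrays they were given SB216763, a small-molecule GSK-3 inhibitor, at 10 uM, each for 20 h. All arrays come from this 1 line with no untreated cells beside them, and nothing in the labels says that the arrays came from separate cultures. P-values therefore reflect array-to-array spread alone, and that spread may be technical. All values are deposited log2 expression levels from whole-transcript arrays. A difference is the mean of the 3 SB216763 arrays minus the mean of the 2 control arrays, in log2 units.

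Autophagy encloses cytoplasm in a double membrane, the autophagosome, and delivers it to the lysosome. The ULK kinase complex starts the process, a class III phosphatidylinositol 3-kinase marks the membrane with the lipid PI3P, and lipid transfer proteins enlarge it. A ubiquitin-like conjugation system then attaches ATG8 proteins (the LC3 and GABARAP families) to the membrane, where receptors such as p62 tether cargo to them. In lymphoid and myeloid cells the pathway is known for recycling nutrients and removing damaged mitochondria. The kinase mTORC1 restrains it, and the MiT/TFE transcription factors, among them TFE3, raise transcription of its genes.

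With SB216763, 8 of the 37 genes changed, all by small amounts. RB1CC1 and ATG101, both of the ULK complex, and WIPI2, a PI3P reader, fell. ATG16L2, ATG4C and GABARAP of the conjugation system, the receptor SQSTM1 and the factor TFE3 rose. Changes past the threshold lay between 1.31-fold (SQSTM1) and 1.67-fold (RB1CC1), and 23 of the 37 genes differed by less than 0.2 log2 units in either direction, which is 1.15-fold. By limma with Benjamini-Hochberg adjustment over all genes, 5 of the 37 were higher and 3 lower at an adjusted p under 0.05. Over all genes, 13.1% were called in either direction, 7.21% higher and 5.92% lower. Those shares include 5270 genes above background (defined below) on no array, which holds for 0 of the 37. Among 12856 genes kept by a filter on dim genes, 3083 were called, beside 9 of the 37, which is about the same share. Among expressed genes the autophagy genes were therefore not called more often than others. The median difference of the 37 genes was 0.01, beside 0.00 for all genes tested. At an unadjusted p under 0.05 there were 7 higher and 7 lower, against 26.5% of all genes.

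**Figure D1:**
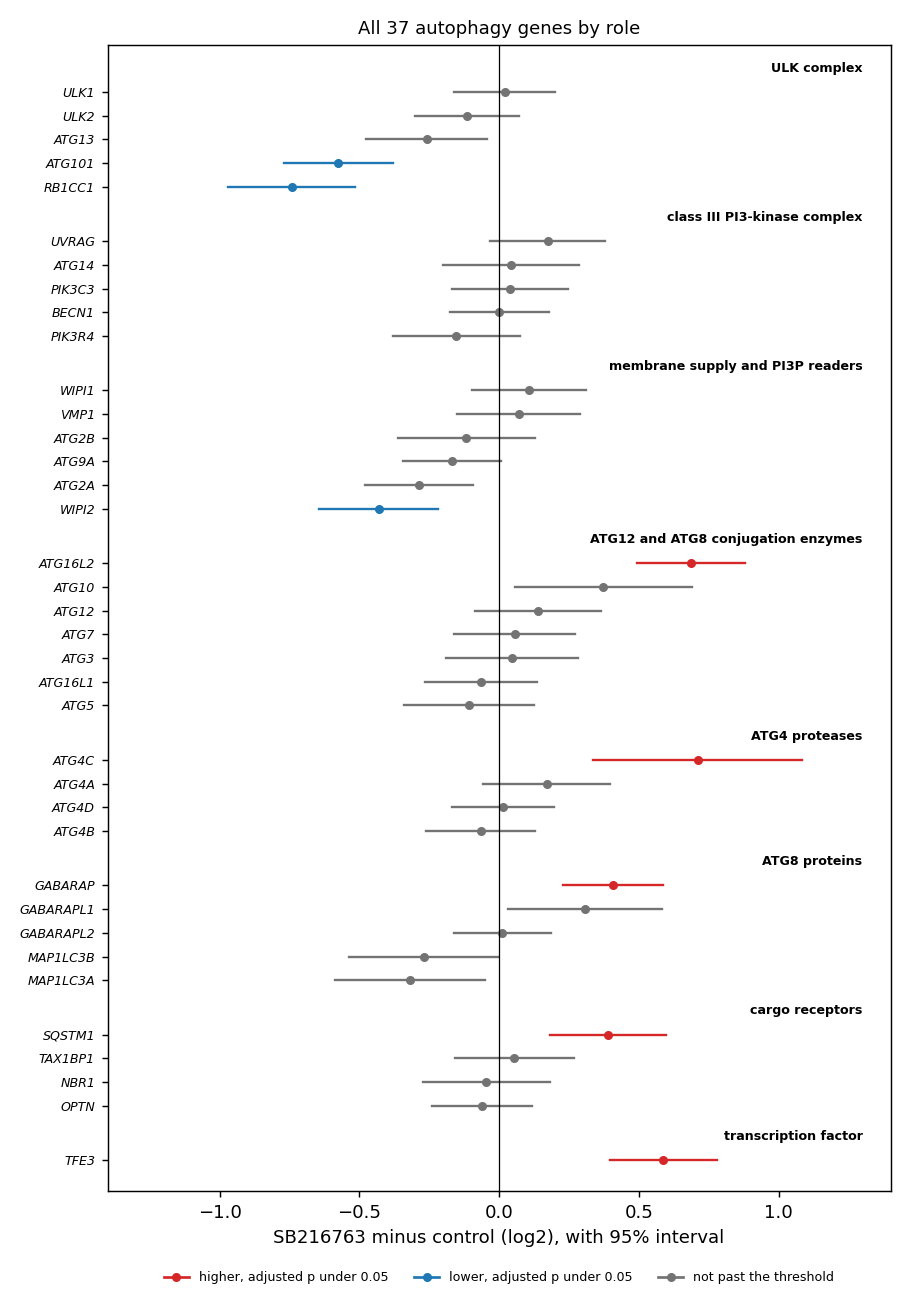
Differences between SB216763 and control (log2, horizontal axis) for the 37 autophagy genes, grouped by role, with 95% intervals of the limma fit (n = 2 control, n = 3 SB216763 arrays). The 3 genes called lower all lie in the ULK complex or among the membrane and PI3P proteins, and the 5 called higher lie from the conjugation enzymes downward and at TFE3.

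The groups did not overlap for 19 of the 37 genes, 51.4%, where the share over all genes was 41.4%. The latter share includes the genes above background on no array. With 1 control array left out, the remaining one was assumed to vary like the SB216763 arrays, which alone gave the spread, and almost no gene on the array was called. Omitting control replicate 1, the limma fit called 0 of the 37 (0.00543% of all genes), with a lowest adjusted p of 0.0691. At an unadjusted p under 0.05 there were then 6 higher and 7 lower, beside 19.6% of all genes. Omitting control replicate 2, it called 0 (0% of all genes), with a lowest adjusted p of 0.0611, and at the unadjusted level 6 were higher and 4 lower, beside 21.5% of all genes. These losses are therefore not particular to the 8 genes. RB1CC1 still differed by -0.73 and -0.75 without control replicates 1 and 2. Leaving out SB216763 replicates 1, 2 and 3 in turn gave 4, 10 and 6 called genes of the 37, beside 5.39%, 15.5% and 8.72% of all genes. RB1CC1, ATG101, ATG16L2 and TFE3 kept their calls whichever SB216763 array was left out, and GABARAP and WIPI2 lost theirs only without SB216763 replicate 1 among those 3 arrays. An ordinary linear model without limma's moderation also called 0, beside 1.36% of all genes, with 4 higher and 5 lower at the unadjusted level, beside 21.3%. The sign of a called gene could not change when 1 array was left out, since the groups of each of the 8 did not overlap.

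**Figure D2:**
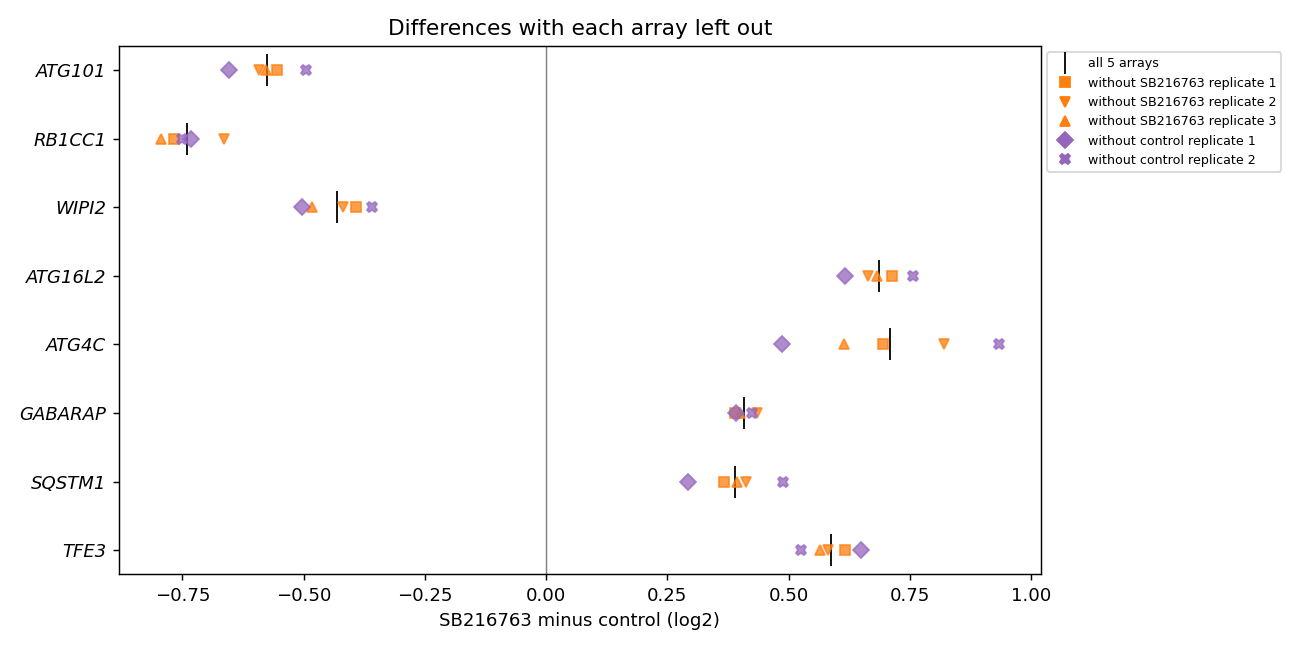
Differences (log2, horizontal axis) of the 8 genes past the threshold with all 5 arrays (black bars) and with each array left out in turn (symbols). ATG4C spreads most, from 0.49 (control replicate 1 left out) to 0.93 (control replicate 2 left out). No gene could cross 0, since the groups of each did not overlap.

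Levels of lineage genes were examined on the same arrays, against a background taken as the 95th percentile of 341 olfactory receptor genes on each array, 5.98 to 6.19. B cell precursor is the usual description of RS4;11. Of 10 measured B cell precursor markers, PAX5, CD79B and IGLL1 were above background on all 5 arrays, and CD22, CD24, DNTT, VPREB1, RAG1 and RAG2 were above it on none. All 11 measured myeloid markers were above background on every array. CSF3R, CD68, LYZ and TYROBP rose (36.4% of the 11, beside 7.21% of all genes). Differences of 3 of the 11 were negative: MPO (-0.23), ELANE (-0.05) and CD14 (-0.003), none past the threshold. The mean level of the 11 lay between 8.47 and 8.48 on the control arrays and between 8.84 and 8.90 on the SB216763 arrays. The part of this shift in the autophagy results was not tested. Of 12 T and NK cell markers, 4 were above background on all arrays. NKG7 and CD4 rose (16.7% of the 12), and 7 of the 12 had negative differences. None of 9 erythroid and megakaryocyte markers passed in limma, and 0 had an unadjusted p under 0.05, beside 13.1% and 26.5% of all genes. Which cells these are was not tested. In bulk RNA, fewer cells of a type and less RNA per cell cannot be told apart.

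TFE3, a basic helix-loop-helix factor that binds promoters of autophagy and lysosome genes, read 8.004 and 7.881 on the control arrays and 8.47, 8.54 and 8.58 with SB216763. Every treated array was above both controls. The rise was 1.502-fold, a difference of 0.59 (SE 0.08, adjusted p = 0.00469 by limma). Its relatives of the MiT/TFE family, which are not among the 37 genes, were measured beside it. TFEB read 7.35 and 7.32 on the control arrays and 7.67, 7.86 and 7.76 with SB216763, a rise of 0.42 (SE 0.09, adjusted p = 0.0178). TFEC rose by 0.43 (SE 0.09, adjusted p = 0.0227), and MITF was above background on no array. TFEC lost its call when SB216763 replicate 1 (adjusted p = 0.0979) or SB216763 replicate 3 (0.0679) was omitted, and with every probe tested singly (0.0623). TFEB had 0.0511 in that last setting.

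Because MiT/TFE factors bind the letters CACGTG, promoters of the 37 genes were searched on both strands for CACGTG, for TCACGTG and for the CLEAR element, a palindrome of 10 letters around CACGTG. RefSeq promoters (GRCh38.p14), 250 bases before to 50 after the start, were matched by symbol for 33 of the 37; those of RB1CC1, UVRAG, ATG4D and MAP1LC3A were not in the table. CACGTG was present in the windows of ATG3 and ATG14, 6.06% of the 33, beside 7.43% of all 27305 promoters and 8.88% of those of genes tested here. The same 2 windows held TCACGTG, which contains CACGTG, beside 3.82% of all promoters, and 0 of the 33 held the CLEAR element, beside 0.381%. The 100 bases before the start of both genes are shown with CACGTG in capitals, since they place the letters 18 bases before the start in ATG3 and 21 bases before it in ATG14. The ATG3 window held CACGTG again after the start, at base 6.
ATG3 (chr3:112561963-112562062, minus strand): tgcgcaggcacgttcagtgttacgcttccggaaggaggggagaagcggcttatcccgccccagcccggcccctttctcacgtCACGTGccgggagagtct
ATG14 (chr14:55411831-55411930, minus strand): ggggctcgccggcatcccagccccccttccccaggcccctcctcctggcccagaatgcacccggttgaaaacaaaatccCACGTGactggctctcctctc
Neither ATG3 nor ATG14 passed the threshold, with differences of 0.05 (SE 0.10, adjusted p = 0.842) and 0.04 (SE 0.10, adjusted p = 0.857). The 7 called genes with a promoter in the table did not hold these letters in this window, which says nothing about binding elsewhere.

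Initiation begins with the ULK complex, in which the kinases ULK1 and ULK2 are held by the scaffold RB1CC1 (FIP200), ATG13 and its partner ATG101. RB1CC1 read 9.11 and 9.09 on the control arrays and 8.41, 8.20 and 8.47 on the SB216763 arrays. All 3 treated arrays lay below both controls, and the treated arrays differed among themselves by more than the controls did. The gene fell by 0.74 (SE 0.10, adjusted p = 0.00368 by limma), 1.67-fold. ATG101, the HORMA-domain partner that stabilizes ATG13, read 8.61 and 8.77 in controls and 8.08, 8.15 and 8.12 with SB216763. It fell by 0.57 (SE 0.08, adjusted p = 0.00542), 1.49-fold, again without overlap.

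The other ULK complex genes did not pass. ATG13 read 10.49 and 10.60 against 10.35, 10.16 and 10.35, a difference of -0.26 (SE 0.09, adjusted p = 0.119) with groups that did not overlap. ULK1, the kinase through which mTORC1 and AMPK act on the complex, read 7.54 and 7.64 in controls and 7.60 to 7.62 with SB216763. Its difference was 0.02 (SE 0.08, adjusted p = 0.915), and the 95% interval ran from -0.16 to 0.20. ULK2 differed by -0.12 (SE 0.08, adjusted p = 0.434). The median over the 5 genes was -0.26.

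None of the 5 genes of the class III PI3-kinase complex was called by limma, and 0 of them had an unadjusted p under 0.05. Over all genes these shares were 13.1% and 26.5%, so 0 of 5 sets the complex little apart. This complex joins the lipid kinase PIK3C3 (VPS34) and its scaffold PIK3R4 (VPS15) with BECN1 (beclin 1) and either ATG14, in autophagosome formation, or UVRAG, on endosomes. BECN1 read 9.14 and 9.09 in controls and 9.10, 9.09 and 9.16 with SB216763. Its difference was 0.00 (SE 0.08), with a 95% interval of -0.18 to 0.18 that reflects array-to-array spread alone. UVRAG had the smallest p of the complex, with 10.06 and 10.20 against 10.33, 10.21 and 10.37. Its difference of 0.17 (SE 0.09, adjusted p = 0.265) did not pass. PIK3R4 read 8.85 and 8.92 against 8.78, 8.59 and 8.83, a difference of -0.15 (SE 0.10, adjusted p = 0.383). PIK3C3 differed by 0.04 (SE 0.09).

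Next come the proteins that supply and read the growing membrane. WIPI2, which binds PI3P and recruits ATG16L1, read 8.83 and 8.97 on the control arrays and 8.39, 8.44 and 8.57 with SB216763. It fell by 0.43 (SE 0.09, adjusted p = 0.0217), 1.35-fold, and its adjusted p was 0.100 without SB216763 replicate 1 and 0.0600 when every probe on the array was tested singly. ATG2A, which moves lipid into the membrane, read 8.07 and 8.09 against 7.81, 7.87 and 7.71. Its groups did not overlap, but its difference of -0.29 (SE 0.08) had an adjusted p of 0.0627, with 0.0426 without SB216763 replicate 2. It also passed with arrays centred, quantile normalized, or freed of dim genes, and with limma's trend and robust options.

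ATG2B, the second lipid transfer protein, differed by -0.12 (SE 0.11), and its other probe by 0.14 (SE 0.11), neither past the threshold. ATG9A, the scramblase of the seed vesicles, differed by -0.17 (SE 0.08, adjusted p = 0.203), with 8.38 on both controls and 8.17 to 8.24 with SB216763. VMP1, a scramblase of the endoplasmic reticulum, differed by 0.07 (SE 0.09). WIPI1 was close to background on every array, at 5.97 to 6.18, and above it on 4 of the 5, so little can be read from its difference of 0.11 (SE 0.09). In all, 3 of the 16 initiation genes were lower and 0 higher, with a median of -0.12 and 7 positive and 9 negative differences.

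**Figure D3:**
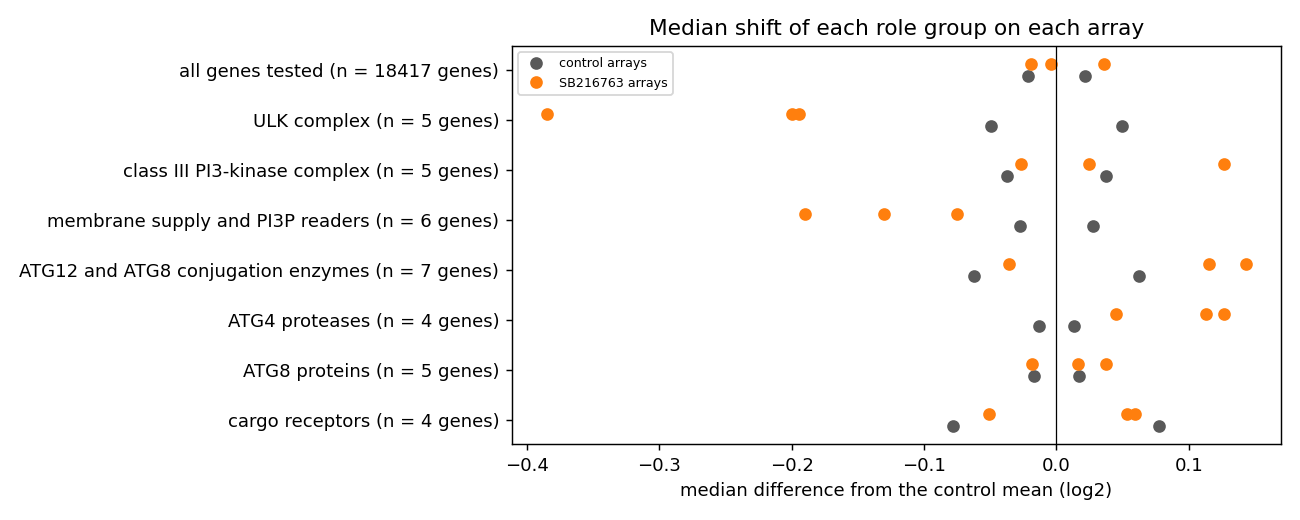
Median difference from the control mean (log2, horizontal axis) over the genes of each role group, 1 point per array, beside that of all genes tested. The 3 SB216763 arrays lie at -0.38 to -0.19 for the ULK complex and at -0.19 to -0.08 for the membrane and PI3P genes, and their points in the other groups drawn lie between -0.05 and 0.14. TFE3 is not drawn, since it is 1 gene.

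The 16 genes of conjugation comprise the enzymes, the ATG4 proteases that trim ATG8 proteins before and after use, and the ATG8 proteins themselves. Of these 3 were higher and 0 lower, with a median of 0.05 and 11 positive and 5 negative differences. Whether initiation and conjugation genes differ in response was not tested. Both shares called (18.8% each) stand beside 13.1% of all genes, which include those at background.

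ATG16L2, a relative of the ATG16L1 scaffold, showed the clearest rise among the 37 genes by p-value. It read 8.20 and 8.34 on the control arrays and 8.899, 8.997 and 8.960 with SB216763. Its difference was 0.69 (SE 0.08, adjusted p = 0.00278), a 1.61-fold rise with no overlap. ATG10, the E2-like enzyme that attaches ATG12 to ATG5, read 7.21 and 7.07 against 7.55, 7.26 and 7.72. The treated arrays lay above the controls but spread widely, and the difference of 0.37 (SE 0.14, adjusted p = 0.125) did not pass. Without SB216763 replicate 2 it did (adjusted p = 0.0248).

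The remaining conjugation enzymes stayed within the spread of the arrays. ATG7, the E1-like enzyme that activates both ATG12 and the ATG8 proteins, differed by 0.06 (SE 0.09), with an interval of -0.16 to 0.27. ATG5, the acceptor of ATG12, differed by -0.11 (SE 0.10), ATG12 itself by 0.14 (SE 0.10), and ATG16L1 by -0.06 (SE 0.09). ATG3, the E2-like enzyme for ATG8 proteins, read 9.99 and 10.25 in controls and 10.18, 10.09 and 10.24 with SB216763, so its groups overlapped.

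Among the 4 proteases, ATG4C read 7.74 and 8.19 on the control arrays and 8.70, 8.45 and 8.86 with SB216763. It rose by 0.71 (SE 0.16, adjusted p = 0.0272), 1.64-fold, the largest increase of the 37 genes and the one with the largest SE. The 2 controls differed by more than those of any other called gene, and omitting SB216763 replicate 1 gave an adjusted p of 0.0889 and omitting SB216763 replicate 3 gave 0.0745. It was 0.0827 with every probe tested singly. ATG4A read 7.30 and 7.24 against 7.52, 7.28 and 7.52, a difference of 0.17 (SE 0.10, adjusted p = 0.330). ATG4B, the protease with the broadest activity on ATG8 proteins, differed by -0.07 (SE 0.08), and by -0.05 (SE 0.09) with its other probe. ATG4D differed by 0.01 (SE 0.08).

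The ATG8 proteins, which coat the autophagosome and hold its cargo, had 1 of 5 genes past the threshold, beside 13.1% of all genes. GABARAP read 9.98 and 10.01 in controls and 10.44, 10.35 and 10.42 with SB216763. It rose by 0.41 (SE 0.08, adjusted p = 0.0140), 1.33-fold, and had an adjusted p of 0.0772 without SB216763 replicate 1. GABARAPL1 read 7.14 and 6.82 against 7.17, 7.41 and 7.28, a difference of 0.31 (SE 0.12, adjusted p = 0.143). GABARAPL2 read 9.85 and 9.84 in controls and 9.82 to 9.88 with SB216763, a difference of 0.01 (SE 0.07) with an interval of -0.16 to 0.19.

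Both LC3 genes had negative differences that did not pass. MAP1LC3A read 6.32 and 6.66 against 6.07, 6.25 and 6.19, with a difference of -0.32 (SE 0.12, adjusted p = 0.122), and was above background on 4 of the 5 arrays. MAP1LC3B, whose protein is the usual marker of autophagosomes, read 6.84 and 7.16 against 6.64, 6.71 and 6.84, with a difference of -0.27 (SE 0.11, adjusted p = 0.183). A further probe names both MAP1LC3B and its near-identical copy MAP1LC3B2, so which gene it measured is uncertain. That probe read 7.86 and 7.92 in controls and 7.52, 7.49 and 7.63 with SB216763. Its groups did not overlap, and its difference of -0.35 (SE 0.08) had an adjusted p of 0.0750 among all probes tested singly, where the MAP1LC3B probe had 0.283.

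**Figure D4:**
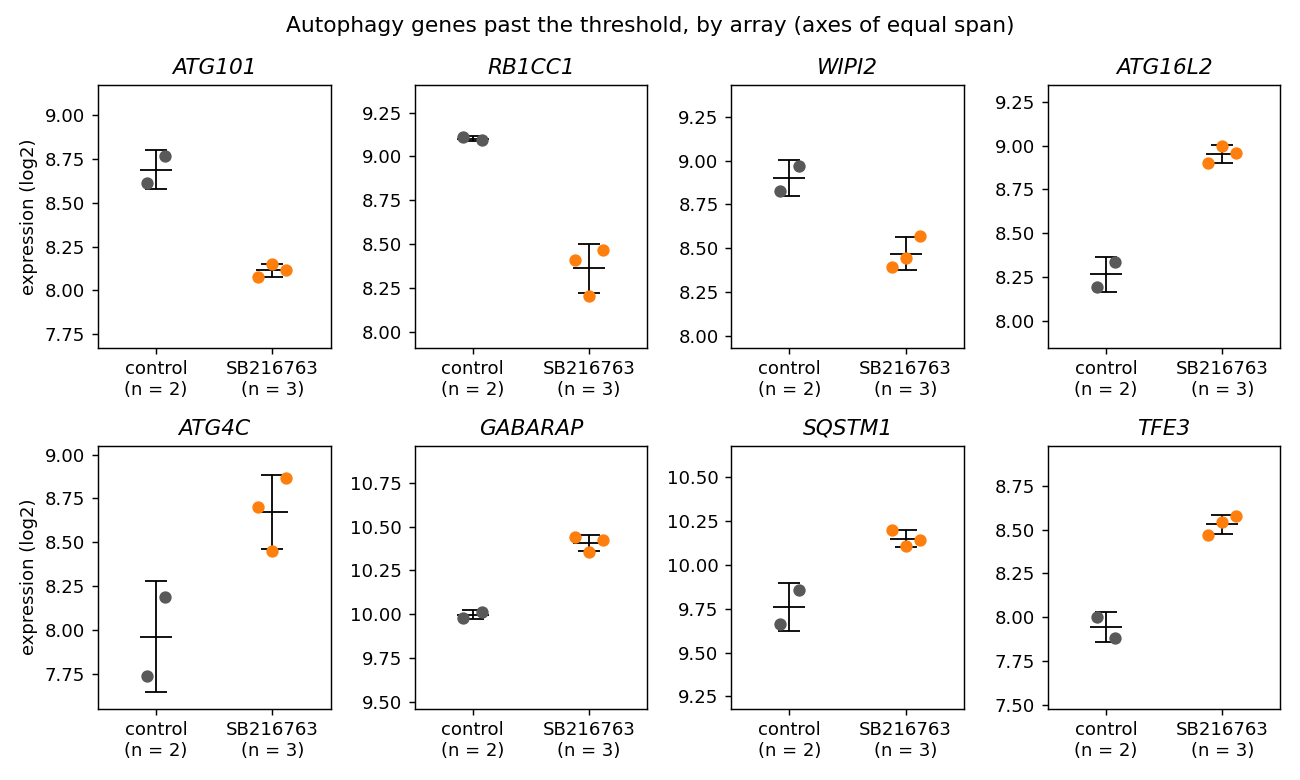
Log2 expression (vertical axis, of equal span in every panel) of the 8 autophagy genes past the threshold on each control (grey, n = 2) and SB216763 (orange, n = 3) array, with mean and SD. The groups do not overlap in any panel, and ATG4C has the widest spread in both groups.

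Cargo receptors link ubiquitinated proteins and organelles to ATG8 proteins. SQSTM1, which encodes p62 and is itself degraded by autophagy, read 9.66 and 9.86 on the control arrays and 10.20, 10.11 and 10.14 with SB216763. It rose by 0.39 (SE 0.09, adjusted p = 0.0278), 1.31-fold, with adjusted p-values of 0.120 when SB216763 replicate 1 was omitted, 0.0704 when SB216763 replicate 3 was, and 0.0695 with every probe tested singly. NBR1, which shares the domain layout of p62, read 8.55 and 8.77 against 8.63, 8.52 and 8.68, a difference of -0.05 (SE 0.10, adjusted p = 0.836). OPTN, a receptor for damaged mitochondria and bacteria, read 7.946 and 8.004 in controls and 7.87, 7.93 and 7.94 with SB216763, a difference of -0.06 (SE 0.08, adjusted p = 0.696). TAX1BP1, which acts on protein aggregates, differed by 0.05 (SE 0.09). With 1 of 4 receptors higher, beside 7.21% of all genes, the median of 0.00 was that of all genes.

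Related genes were also compared within each array, over 11 pairs. In 8 pairs the difference between the 2 genes did not overlap between groups. The share over other gene pairs was not computed, 41.4% of single genes did not overlap, and 5 of the 8 pairs hold a called gene. One of them pairs WIPI2 with WIPI1, which was not above background on every array, so its values are not given. ATG16L1 minus ATG16L2 was 0.20 on both control arrays and lay between -0.65 and -0.49 with SB216763. ATG4C minus ATG4D went from between -1.05 and -0.62 to between -0.42 and 0.09. SQSTM1 minus NBR1 went from 1.09 and 1.11 to between 1.46 and 1.59, and GABARAP minus GABARAPL2 from 0.13 and 0.18 to between 0.47 and 0.62. MAP1LC3A minus MAP1LC3B, ATG2A minus ATG2B and GABARAP minus GABARAPL1 overlapped. The two-sided exact permutation test as run here doubles the smaller one-sided p. With 2 against 3 arrays it could not give less than 0.2, which these 8 pairs reached. Their adjusted p over the 11 pairs was 0.275, so none passed.

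A further 69 measured genes of 73 listed, which act around the 37, gave 14 higher and 3 lower, with a median of 0.17. Over all genes 7.21% were higher and 5.92% lower. Of the 69, 65 were above background on all arrays, beside 12071 of all 18417 genes. Of 26 genes of mTORC1 and AMPK control, 7 rose and 0 fell. SESN3, a sestrin that restrains mTORC1, read 8.63 and 8.83 in controls and 9.71, 9.56 and 9.73 with SB216763, a rise of 0.94 (SE 0.10, adjusted p = 0.00167), 1.92-fold. TSC2, which switches off the mTORC1 activator RHEB, rose by 0.52 (SE 0.08, adjusted p = 0.00780). The other 5 were DDIT4, RRAGD, PRKAG1, FLCN and SESN1, named after their values were seen, with rises of 0.36 to 0.66. RRAGD, PRKAG1, FLCN and SESN1 lost their calls without SB216763 replicate 1, with adjusted p-values of 0.0512 to 0.128, and PRKAG1 (0.0546) and SESN1 (0.0947) also without SB216763 replicate 3. PRKAG1 (0.0551), FLCN (0.0509) and SESN1 (0.0805) also lost theirs with every probe tested singly.

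Of 13 genes of fusion with the lysosome, 4 rose and 0 fell, beside 7.21% and 5.92% of all genes. VPS11, a core subunit of the HOPS tether, read 9.14 and 9.22 against 9.76, 9.64 and 9.78, a rise of 0.54 (SE 0.08, adjusted p = 0.00649). STX17, the autophagosomal SNARE, rose by 0.47 (SE 0.09, adjusted p = 0.0132). SNAP29, its partner, and VPS41, also of HOPS, both named after their values were seen, rose by 0.41 and 0.36. Without SB216763 replicate 1 the adjusted p was 0.0604 for STX17, 0.0664 for SNAP29 and 0.104 for VPS41. Without SB216763 replicate 3 it was 0.0501 for SNAP29 and 0.0854 for VPS41. With every probe tested singly it was 0.0816 for VPS41. RAB7A, the small GTPase of late endosomes, differed by -0.18 (SE 0.08, adjusted p = 0.213).

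Of 12 other genes listed as initiation and nucleation factors, 3 fell and 0 rose, beside 5.92% and 7.21% of all genes. The median of the 12 was 0.06, with 7 positive and 5 negative differences. PINK1, the kinase that marks damaged mitochondria, read 8.07 and 8.03 in controls and 7.55, 7.48 and 7.53 with SB216763, a fall of 0.53 (SE 0.08, adjusted p = 0.00501). BCL2, which binds beclin 1, fell by 0.39 (SE 0.08, adjusted p = 0.0202), and EI24, a protein of the endoplasmic reticulum named after its value was seen, by 0.37. The BCL2 call was lost when SB216763 replicate 1 (adjusted p = 0.0753) or SB216763 replicate 3 (0.0534) was omitted and with every probe tested singly (0.0530). EI24 lost its call with SB216763 replicate 1 omitted (0.106) and with every probe tested singly (0.0652). Of 11 other receptors 1 rose (9.09%), near the 7.21% of all genes: FUNDC1, of the outer mitochondrial membrane, read 8.94 and 8.96 against 9.54, 9.49 and 9.70, a rise of 0.62 (SE 0.09, adjusted p = 0.00493). NCOA4, the ferritin receptor, differed by 0.39 (SE 0.11, adjusted p = 0.0632). With either control array left out, the fit called 0 of the 69, where it called almost no gene at all. With SB216763 replicate 1 omitted 6 were higher and 1 lower, and with SB216763 replicate 3 omitted 9 were higher.

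**Figure D5:**
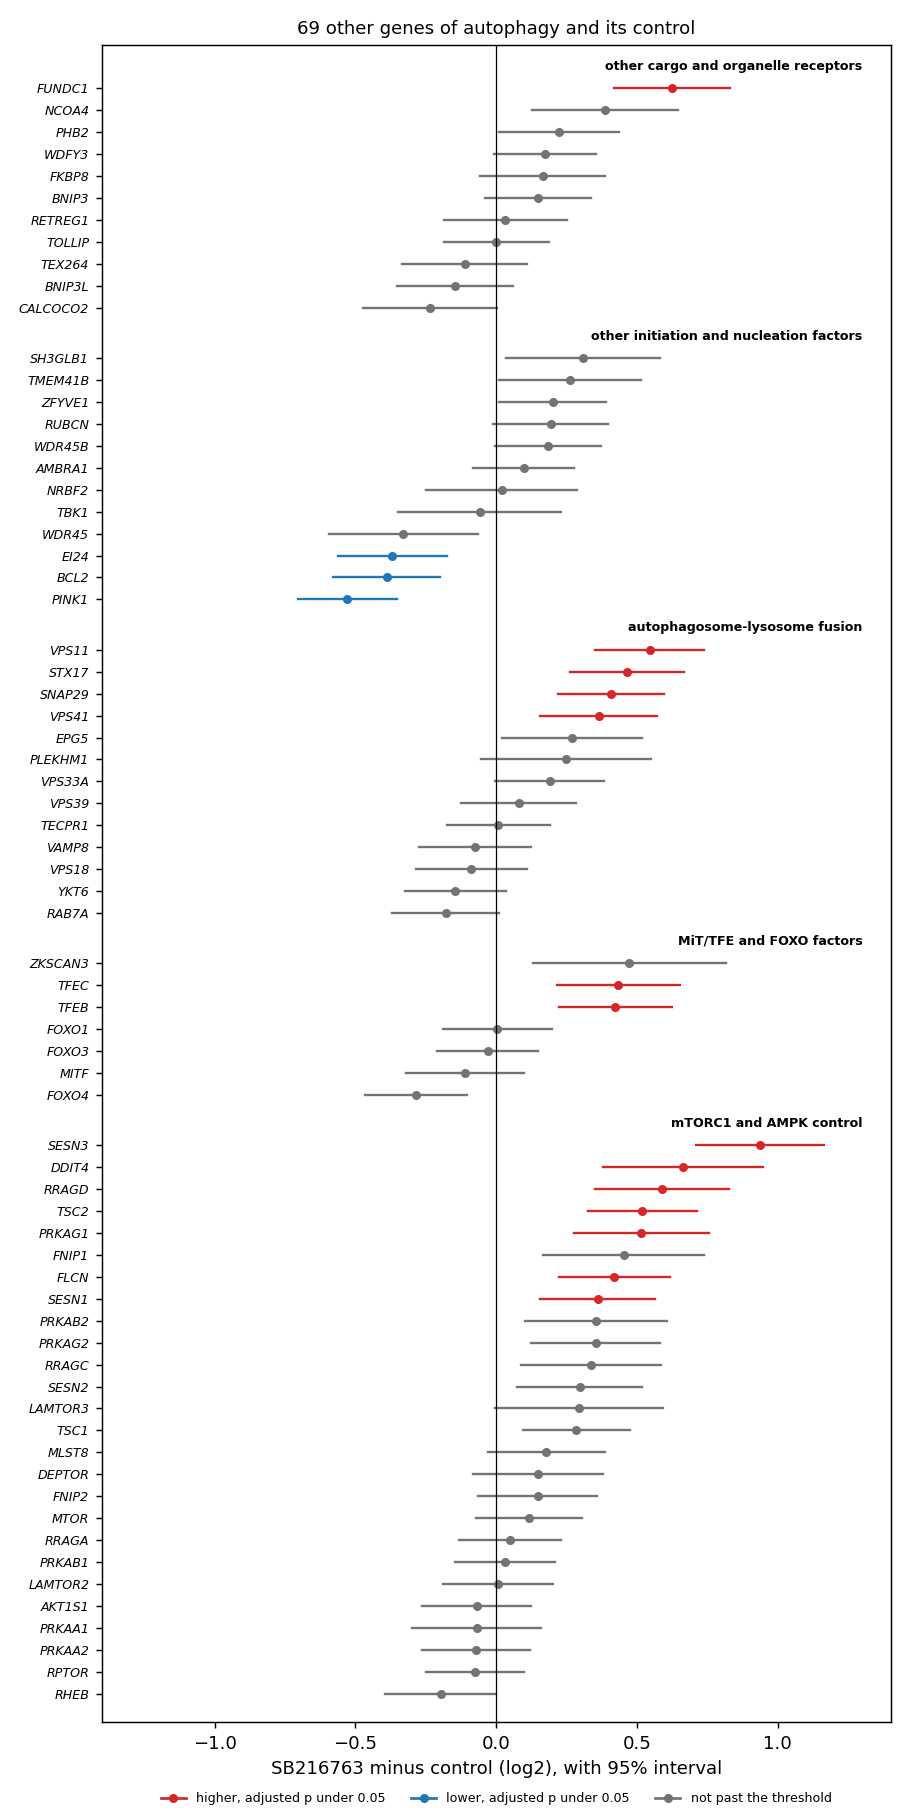
Differences between SB216763 and control (log2, horizontal axis) for 69 other genes of autophagy and its control, by role, with 95% intervals of the limma fit (n = 2 control, n = 3 SB216763 arrays). The genes called higher lie among mTORC1 and AMPK control, fusion, MiT/TFE factors and FUNDC1, and the 3 called lower are EI24, BCL2 and PINK1.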

How the data were processed

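Total RNA of 5 samples was labelled for Affymetrix whole-transcript arrays. The authors deposited 1 table of log2 values, made with Affymetrix Expression Console per the submitters' processing notes; their range, 1.95 to 14.84, is that of log2 values. The version, summarisation method and build were not given in the sources used here. Array medians lay between 6.77 and 6.84, so nothing was normalized further. Of 33297 probes, 19460 had 1 symbol in the platform annotation, 1754 several and 12083 none; 769 genes had several probes, of which the brightest was used.

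Groups were compared over 18417 genes with limma 3.58.1 in R 4.3.3 (lmFit, eBayes), two-sided, Benjamini-Hochberg adjusted, threshold 0.05, and SEs and 95% intervals use its moderated variances, with 7.62 degrees of freedom. The fitting code was run on simulated data with known changes and independent noise, which does not test the calls made here. Pairs were tested with SciPy 1.17.1. Values on every array are given for members past the threshold and the 2 members with the smallest p in each role. Outside this rule, array values are also given for ATG13, BECN1, ATG3, GABARAPL1, MAP1LC3B and NBR1. For ULK1, ATG9A and GABARAPL2 the SB216763 values are given as a range. Of the other autophagy genes the 2 with the smallest p in each list are named. RAB7A was named outside that rule, as were the genes marked as named after their values were seen. The members and lists were chosen with earlier results of these data known. CCPG1, STBD1, VPS16 and LAMTOR1 had no probe of their own.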

Additional observations from a re-analysis of the deposited data

How the results depend on the processing

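The number of arrays limits every result: with 1 control array left out, the SB216763 arrays alone gave the spread and almost no gene on the array was called, so the loss of the 8 calls among the 37 genes (members) is not particular to them. Without moderation 0 members were higher and 0 lower, so 0 in conjugation and 0 receptors were higher, and of the other autophagy genes 0 were higher and 1 lower. With every probe tested singly 3 members were higher, 0 receptors were, and 8 other genes were higher and 1 lower. Over all 18417 genes, 1258 were then called, beside 2418 in the main fit. A filter on dim genes, which leaves fewer genes to adjust over, gave 22 other genes higher. It called 3083 of the 12856 genes left. With the mean of a gene's probes the initiation median was -0.057. The titles share replicate numbers, but deviations of same-numbered arrays correlated at -0.05 and -0.10, so the numbers were not taken to pair arrays. With the replicate number as a block, 4 members were higher and 3 lower, 0 receptors were higher and 1 other gene was lower. That fit called 1830 of all 18417 genes. Number 3 occurs only with SB216763, so the block fit gave the same differences as leaving out SB216763 replicate 3.

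Leaving out each array in turn gave 0 to 6 members higher, 0 to 4 lower, 0 to 4 higher in conjugation, 0 to 1 higher among receptors, and 0 to 19 other genes higher and 0 to 3 lower. Medians ran from -0.149 to -0.0565 for initiation, 0.0094 to 0.126 for conjugation, -0.0470 to 0.0875 for receptors and -0.030 to 0.063 for all 37 genes. Centring arrays or quantile normalization moved the median of all genes by less than 0.1 on the log2 scale.

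No called member changed sign under any of the 13 alternatives, but most of these could not change one. Leaving out 1 array could not, since the groups did not overlap, and the replicate block gave the differences found without SB216763 replicate 3. Settings that altered only the variance, the probes or the genes kept left these differences as they were, since each called member had 1 probe. Only centring and quantile normalization could have changed a sign. The 11 members that did change sign were not called, with differences of at most 0.12 in size. With centred arrays ULK1 was -0.016, BECN1 -0.035, ATG4D -0.021 and GABARAPL2 -0.024. After quantile normalization ULK1 was -0.026, BECN1 -0.015 and ATG14 -0.0003. With the replicate block PIK3C3 was -0.0058 and BECN1 -0.020. With the mean of its probes ATG2B was 0.0088. Leaving out each array in turn gave ranges of -0.030 to 0.0691 for ULK1, -0.0058 to 0.0966 for PIK3C3, -0.0204 to 0.0215 for BECN1, -0.096 to 0.182 for ATG14, -0.0841 to 0.176 for ATG3, -0.1345 to 0.0051 for ATG16L1, -0.017 to 0.0331 for ATG4D, -0.0010 to 0.0268 for GABARAPL2, -0.154 to 0.0633 for NBR1 and -0.0036 to 0.112 for TAX1BP1. The cause of these changes was not tested.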

Other observations

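The 3 SB216763 arrays did not sit evenly for the autophagy genes. SB216763 replicate 2 held the lowest of the 3 values for 22 of the 37 genes (59.5%), beside 37.6% of all genes tested, and SB216763 replicate 3 held the highest for 21, beside 32.3% of all genes. Those shares over all genes include 5270 above background on no array, and background was lowest on SB216763 replicate 3 (5.98, beside 6.12 and 6.15). Shares among expressed genes were not computed, so whether the pattern is particular to the autophagy genes was not tested. ATG4C, ATG10, RB1CC1, ATG5 and PIK3R4 were among the genes lowest on SB216763 replicate 2, chosen after their values were seen. Leaving that array out raised the members called from 8 to 10, by adding ATG2A (lower) and ATG10 (higher), while calls over all genes went from 2418 to 2859. Whether this array differs in handling was not tested.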
